A study of Mus musculus with 30 samples.

Results

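Skeletal muscle contractile genes were followed through 30 RNA-seq libraries of subcutaneous B16F10 tumors, a transplanted mouse melanoma. The set was given as a list of 39 gene symbols: proteins of the myosin and actin filaments, the Z-disc, calcium release and uptake, and the energy supply of muscle fibers. All 39 were found among the 18975 genes of the deposited table. Of these, 37 passed the filter on low values (above 0 on the log2 scale in 3 or more libraries), and Jph1 and Ckmt2 did not. A gene whose reads came mainly from a few high libraries could still pass it.

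The study asked how host mice carrying the ARE-del allele, which removes an AU-rich element from the interferon-gamma gene, respond to antibody therapy of a tumor. The hosts were female C57BL/6 mice of genotype ARE-del +/+, titled WT, or ARE-del +/-, titled HET. The tumor cells were the same line in every host, and hosts, not tumor cells, differed in the allele. Antibodies began on day 7 of growth and were given 2 times a week: control rat IgG2A (IgG below), 0.25 mg of anti-PD1, which blocks a T cell checkpoint receptor, 0.25 mg of agonist anti-CD40, which stimulates antigen-presenting cells, or anti-PD1 with anti-CD40 (the combination). WT mice gave 5 libraries after IgG, 4 after anti-PD1, 3 after anti-CD40 and 3 after the combination. In the same order, 4, 3, 4 and 4 came from HET hosts. The ages of the mice are not in the labels, and they do not say whether each replicate was its own animal. The p-values therefore reflect only how much these samples vary, which may be technical.

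Skeletal muscle contracts when myosin heads of the thick filaments pull on the actin of the thin filaments. Calcium released from the sarcoplasmic reticulum binds troponin C and uncovers the myosin sites on actin, and the SERCA pump then returns the calcium. Fibers are classed by their myosin heavy chain: Myh7 marks slow fibers, Myh2 fast oxidative fibers, Myh1 an intermediate fast type and Myh4 the fastest, glycolytic fibers, which dominate many limb and trunk muscles of the mouse. A thin sheet of skeletal muscle, the panniculus carnosus, lies under mouse skin, in the plane where subcutaneous tumors are placed.

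The promoters of muscle genes are read by MyoD family factors at E-boxes, by MEF2 and by serum response factor at CArG boxes. RefSeq start windows (GRCm38.p6) were matched for 30 of the 39 genes, without Actn3, Jph1, Myot, Myoz1, Neb, Tcap, Tnni2, Tnnt3 and Trdn. The 250 bases before the start are printed for 3 genes that moved together across the libraries and for Trim63, whose level varied little. These are Ckm (chr7:19410844-19411093, plus strand), Myh4 (chr11:67237562-67237811, plus strand), Acta1 (chr8:123894776-123895025, minus strand) and Trim63 (chr4:134314870-134315119, plus strand). The Ckm window is the RefSeq start nearest to the start of the GENCODE gene, 6318 bases away. Capitals mark E-boxes (CANNTG), the TATA motif, MEF2 sites and CArG boxes on either strand. The TATA motif was searched as TATAAA, and it can share bases with a MEF2 site.
Ckm: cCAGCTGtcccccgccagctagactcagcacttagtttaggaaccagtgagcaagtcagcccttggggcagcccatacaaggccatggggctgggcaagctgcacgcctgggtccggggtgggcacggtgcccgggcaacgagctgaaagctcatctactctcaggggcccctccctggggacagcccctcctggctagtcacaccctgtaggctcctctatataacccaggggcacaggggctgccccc
Myh4: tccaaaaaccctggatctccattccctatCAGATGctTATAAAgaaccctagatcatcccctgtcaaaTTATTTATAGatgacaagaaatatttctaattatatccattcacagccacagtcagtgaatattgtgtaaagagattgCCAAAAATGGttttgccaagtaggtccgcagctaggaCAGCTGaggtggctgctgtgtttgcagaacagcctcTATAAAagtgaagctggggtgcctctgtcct
Acta1: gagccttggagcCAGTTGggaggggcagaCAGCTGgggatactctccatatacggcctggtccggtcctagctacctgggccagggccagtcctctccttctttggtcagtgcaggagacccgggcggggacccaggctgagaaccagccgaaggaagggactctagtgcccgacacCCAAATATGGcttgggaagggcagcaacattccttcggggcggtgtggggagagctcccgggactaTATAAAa
Trim63: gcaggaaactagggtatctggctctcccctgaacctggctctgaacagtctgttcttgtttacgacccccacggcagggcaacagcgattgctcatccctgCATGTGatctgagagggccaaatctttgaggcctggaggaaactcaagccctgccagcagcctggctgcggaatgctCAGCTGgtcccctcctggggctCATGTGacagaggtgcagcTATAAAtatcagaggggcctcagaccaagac
Among the 30 windows, 24 (80.0%) held an E-box, against 66.2% of all 32851 windows of that length in the table. A TATAAA stood in 5 of 30, against 12.4% of all windows. A MEF2 site was found in 6 of 30, against 2.92%, and a CArG box in 3 of 30, against 1.47%. These matches describe letters in the windows and were not tested.

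Muscle RNA was a small and uneven part of these tumors. The 39 genes took between 0.00863% and 0.107% of the reads of a library. Trim63 and Eno3 made up most of their CPM (reads of a gene scaled to library size) in the low libraries, so sums are given without them, over 37 genes. In HET mice that sum was 21.8, 38.0, 23.4 and 630.4 CPM after IgG, 72.2, 27.8 and 89.3 after anti-PD1, 616.8, 75.6, 275.3 and 929.0 after anti-CD40, and 218.0, 126.8, 559.1 and 268.8 after the combination. In WT mice it was 131.3, 23.7, 44.0, 36.0 and 22.6 CPM after IgG, 443.8, 23.1, 38.3 and 20.9 after anti-PD1, 29.3, 47.2 and 77.5 after anti-CD40, and 21.3, 84.3 and 30.3 after the combination. The HET libraries given anti-CD40, with or without anti-PD1, were thus mostly high, and WT anti-PD1 replicate 1 and HET IgG replicate 4 stood far above the rest of their groups. HET anti-CD40 replicate 4 held the highest value of 27 of the 39 genes, and HET IgG replicate 4 that of 8. In bulk tumor RNA, fewer muscle fibers in a sample and less RNA per fiber cannot be told apart.

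**Figure D1:**
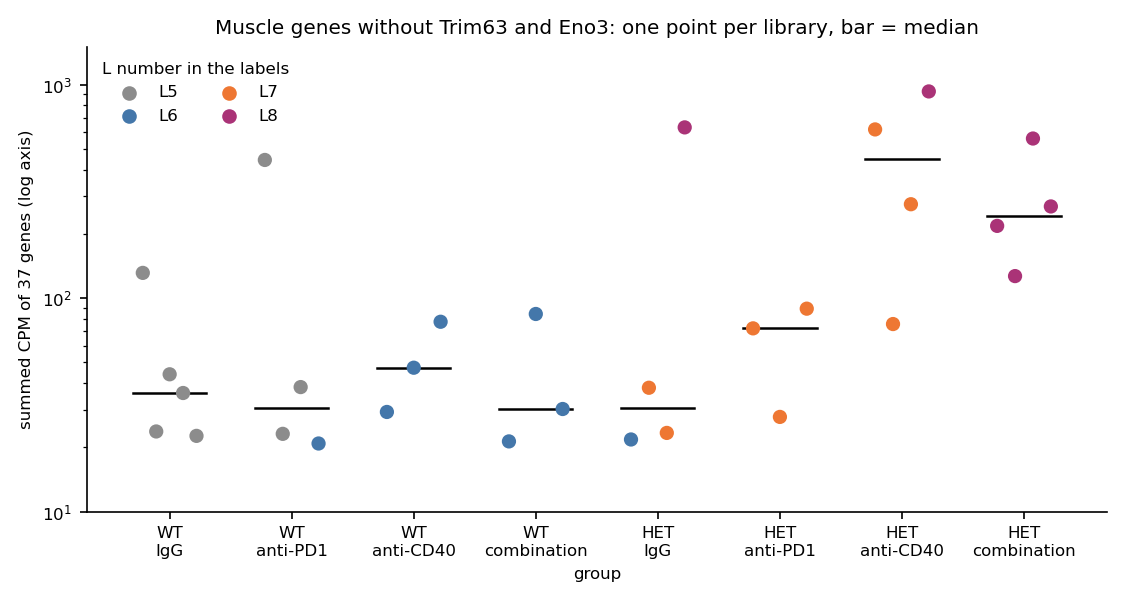
Summed CPM of 37 muscle genes (39 without Trim63 and Eno3) on a log axis, by group, with 1 point per library, a bar at the group median, and color for the L number in the sample labels. The 8 HET libraries given anti-CD40 range from 75.6 to 929.0 CPM, and all 6 libraries of L8, the HET IgG library among them, stand at 126.8 CPM or above.

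The labels give each library an L number from L5 to L8 without saying what it stands for, and it follows the groups. L5 held WT IgG and WT anti-PD1 libraries. L6 held the WT libraries given anti-CD40, WT anti-PD1 replicate 4 and HET IgG replicate 1. L7 held HET IgG replicates 2 and 3, all HET anti-PD1 libraries and HET anti-CD40 replicates 1 to 3. L8 held HET IgG replicate 4, HET anti-CD40 replicate 4 and all HET combination libraries. The summed level had a median of 37.1 CPM in L5, 29.8 in L6, 73.9 in L7 and 414.0 in L8 (n = 8, 8, 8 and 6 libraries). For the HET combination, treatment and L number therefore cannot be told apart, except through 2 libraries. These are the 1 HET IgG library of L8, which was itself high, and HET anti-CD40 replicate 4, whose group also spans L7 and L8. Genotype and L number meet only in L6, where HET IgG replicate 1 stands beside WT libraries. L7 holds both HET libraries given anti-CD40 and HET libraries not given it.

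**Figure D2:**
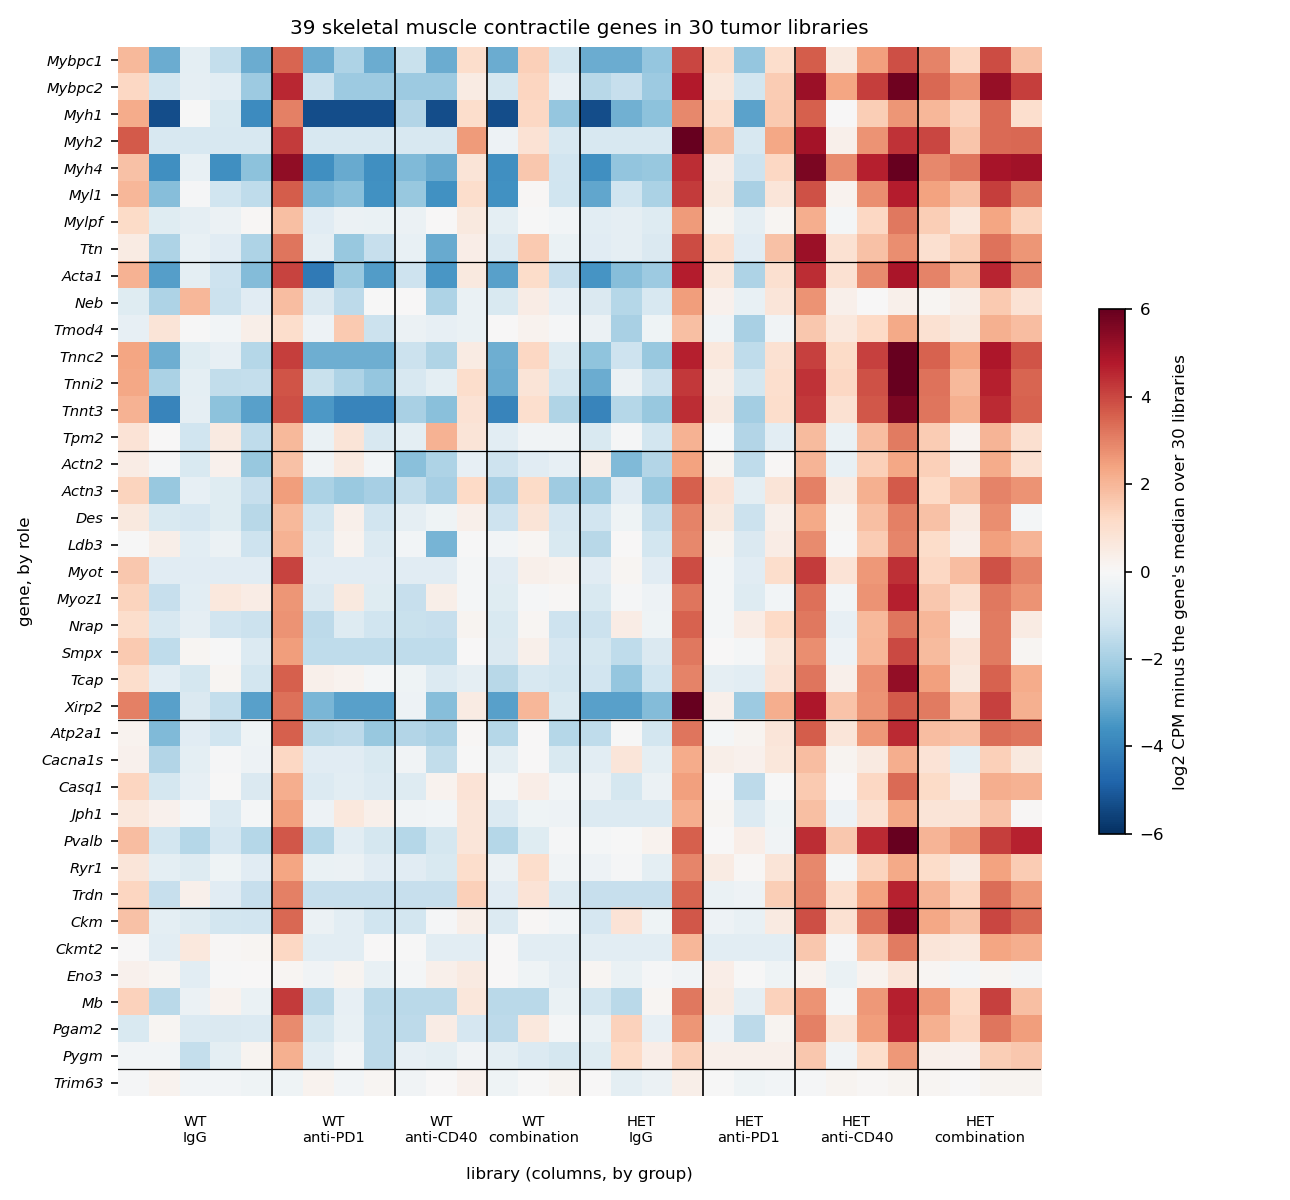
Values of the 39 genes (rows, grouped by role) in the 30 libraries (columns, grouped by genotype and treatment), as log2 CPM minus each gene's median over the libraries. High libraries are high for nearly every gene at the same time, while Trim63 and Eno3 stay near their medians.

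Thick filament genes varied widely between libraries. Myh4, the heavy chain of the fastest fibers (chromosome 11, 67238029 to 67260446, plus strand, mm10), stood in HET libraries at 0, 0.119, 0.136 and 22.3 CPM after IgG, 1.34, 0.355 and 2.37 after anti-PD1, 52.1, 7.26, 26.3 and 98.0 after anti-CD40 and 7.59, 9.67, 32.4 and 33.6 after the combination. In WT libraries it stood at 3.45, 0, 0.679, 0 and 0.106 CPM after IgG, 41.9, 0, 0.0466 and 0 after anti-PD1, 0.0833, 0.0479 and 1.72 after anti-CD40 and 0, 3.12 and 0.387 after the combination. Every HET library given anti-CD40 was above 7 CPM, and of the other 22 libraries WT anti-PD1 replicate 1 and HET IgG replicate 4 were above that level. Myh1, the intermediate fast heavy chain, had 0, 0.358, 0.499 and 23.6 CPM after IgG, 6.41, 0.266 and 9.35 after anti-PD1, 38.5, 3.15, 8.79 and 19.8 after anti-CD40 and 12.9, 8.26, 33.4 and 6.32 after the combination in HET libraries. The WT values of Myh1 were 14.9, 0, 3.11, 1.65 and 0.159 CPM after IgG, 26.4, 0, 0 and 0 after anti-PD1, 0.874, 0 and 6.56 after anti-CD40 and 0, 7.45 and 0.562 after the combination. For Myh4 the treated and untreated HET libraries overlapped only through HET IgG replicate 4. Myh1 was also higher in 2 of 3 HET anti-PD1 libraries than in HET anti-CD40 replicate 2, so its sets overlapped without that library too.

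Myh2, the fast oxidative heavy chain, had no read in 14 of 30 libraries. Its lowest, median and highest values were 0.110, 1.57 and 4.85 CPM in the 8 HET libraries given anti-CD40, 0, 0 and 18.3 CPM in the 7 HET libraries not given it, and 0, 0 and 2.76 CPM in the 15 WT libraries. The highest Myh2 value of all was that of HET IgG replicate 4. Mylpf, the fast regulatory light chain, had the highest mean log2 value of this group and ranged over 3.89, 11.3 and 38.7 CPM in the 8 HET libraries given anti-CD40, 2.45, 2.88 and 25.1 CPM in the 7 HET libraries not given it, and 2.52, 3.31 and 14.7 CPM in the 15 WT libraries. Titin (Ttn), the giant spring that spans the sarcomere from Z-disc to M-line, ranged over 4.14, 10.6 and 78.9 CPM in the 8 HET libraries given anti-CD40, 1.14, 1.43 and 33.8 CPM in the 7 HET libraries not given it, and 0.192, 1.46 and 20.4 CPM in the 15 WT libraries. Both were detected in every library, and their HET sets overlapped. The other thick filament genes, Myl1, Mybpc1 and Mybpc2 (a light chain and the slow and fast myosin binding proteins), peaked at 25.7, 9.99 and 20.3 CPM.

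Thin filament genes followed the same libraries. Acta1, the skeletal muscle actin, stood in HET libraries at 0.328, 0.716, 0.953 and 122 CPM after IgG, 7.52, 1.24 and 9.12 after anti-PD1, 100.7, 8.69, 33.9 and 139 after anti-CD40 and 36.6, 17.4, 112 and 36.4 after the combination. WT values of Acta1 were 19.8, 0.398, 3.06, 1.90 and 0.688 CPM after IgG, 78.9, 0.170, 0.933 and 0.380 after anti-PD1, 1.92, 0.335 and 7.03 after anti-CD40 and 0.419, 10.2 and 1.76 after the combination. Per kilobase of exon Acta1 reached 90.2 CPM, the highest of the 39 genes on that scale. Without HET IgG replicate 4, the HET libraries not given anti-CD40 reached 9.12 CPM, just above the lowest library given it (8.69 CPM). Tpm2, a tropomyosin that lies along the actin filament, ranged over 4.80, 20.6 and 54.8 CPM in the 8 HET libraries given anti-CD40, 1.82, 4.12 and 26.7 CPM in the 7 HET libraries not given it, and 2.12, 5.43 and 26.7 CPM in the 15 WT libraries. The highest WT value of Tpm2 was in WT anti-CD40 replicate 2, whose sum over the 37 genes was 47.2 CPM. The fast troponin genes Tnni2, Tnnc2 and Tnnt3, whose products make the filament respond to calcium, peaked at 40.4, 45.4 and 63.2 CPM. Nebulin (Neb), a ruler protein of the thin filament, and Tmod4, which caps its end, varied less, with highest values 6.56 and 6.10 times their medians over the 30 libraries.

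Among Z-disc and cytoskeletal genes, desmin (Des), the intermediate filament that ties Z-discs together, ranged over 7.36, 27.8 and 65.3 CPM in the 8 HET libraries given anti-CD40, 2.91, 6.68 and 63.8 CPM in the 7 HET libraries not given it, and 2.43, 4.76 and 31.2 CPM in the 15 WT libraries. Actn3, the alpha-actinin of fast fibers, ranged over 1.94, 7.75 and 18.8 CPM in the 8 HET libraries given anti-CD40, 0.227, 0.886 and 17.1 CPM in the 7 HET libraries not given it, and 0.221, 0.458 and 8.19 CPM in the 15 WT libraries. For both genes the HET sets overlapped, with or without HET IgG replicate 4. The lowest treated HET library had 7.36 CPM of Des (HET combination replicate 4) and 1.94 CPM of Actn3 (HET anti-CD40 replicate 2), against up to 12.2 and 2.48 CPM in the untreated ones without HET IgG replicate 4. Xirp2, a large actin-binding protein of muscle cell junctions, was the highest of the rest of this group at 49.0 CPM in HET IgG replicate 4. Tcap, which anchors titin in the Z-disc, peaked at 15.3 CPM in HET anti-CD40 replicate 4, and Nrap, Actn2, Myoz1, Ldb3, Smpx and Myot peaked between 2.58 and 9.65 CPM.

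Calcium handling genes showed the pattern too. Atp2a1, the SERCA pump of fast fibers, had 0.852, 2.56, 1.18 and 24.6 CPM after IgG, 2.44, 2.97 and 4.38 after anti-PD1, 33.8, 4.40, 16.2 and 60.8 after anti-CD40 and 9.69, 8.78, 27.4 and 24.9 after the combination in HET libraries. In WT libraries Atp2a1 reached 32.3 CPM in anti-PD1 replicate 1 and at most 3.08 CPM in the others. Apart from HET IgG replicate 4, each HET library given anti-CD40 was above each HET library not given it, by a small margin at the boundary (4.40 against 4.38 CPM). Ryr1, the calcium release channel, ranged over 1.36, 4.21 and 11.5 CPM in the 8 HET libraries given anti-CD40, 0.953, 1.55 and 11.8 CPM in the 7 HET libraries not given it, and 0.766, 1.16 and 8.02 CPM in the 15 WT libraries. Pvalb, a calcium buffer of the fastest fibers, went from 0.148, 0.191 and 3.09 CPM in HET libraries not given anti-CD40 (lowest, median and highest) to 0.733, 5.14 and 25.8 CPM in those given it. The calsequestrin Casq1, the voltage sensor Cacna1s and triadin (Trdn) peaked at 9.36, 4.00 and 5.00 CPM, and Jph1, a junction protein that missed the filter, at 0.690 CPM in WT anti-PD1 replicate 1.

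Of the energy genes, Ckm, the muscle creatine kinase, stood in HET libraries at 0.753, 2.92, 1.32 and 22.2 CPM after IgG, 1.30, 1.15 and 2.41 after anti-PD1, 24.9, 3.12, 16.8 and 70.3 after anti-CD40 and 8.45, 5.69, 26.8 and 17.7 after the combination. WT values of Ckm were 5.65, 1.06, 0.906, 0.701 and 0.688 CPM after IgG, 18.7, 1.26, 1.03 and 0.665 after anti-PD1, 0.708, 1.53 and 2.07 after anti-CD40 and 0.885, 1.70 and 1.44 after the combination. Only HET IgG replicate 4 kept the HET sets from separating, since the other 6 HET libraries not given anti-CD40 reached at most 2.92 CPM and the lowest library given it had 3.12 CPM. Mb (myoglobin), Pgam2 (a glycolytic mutase) and Pygm (glycogen phosphorylase) peaked at 6.08, 5.66 and 14.5 CPM, all in HET anti-CD40 replicate 4. Ckmt2, the mitochondrial creatine kinase of muscle, missed the filter and peaked at 0.987 CPM.

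Trim63 and Eno3 varied far less between libraries than the other 37 genes. Eno3, the muscle enolase, ranged over 25.5, 36.7 and 56.4 CPM in the 8 HET libraries given anti-CD40, 25.6, 32.1 and 44.9 CPM in the 7 HET libraries not given it, and 21.7, 34.5 and 50.3 CPM in the 15 WT libraries, and its highest value was 1.65 times its median. Trim63, a ubiquitin ligase known from muscle wasting, ranged over 69.5, 81.0 and 83.2 CPM in the 8 HET libraries given anti-CD40, 48.8, 66.6 and 95 CPM in the 7 HET libraries not given it, and 61.5, 70.8 and 88.3 CPM in the 15 WT libraries, a highest value 1.29 times the median. On the per kilobase scale they had the highest median CPM of the 39 genes, 25.8 for Trim63 and 19.7 for Eno3, followed by Mylpf at 3.96. Across the 30 libraries the log2 values of Trim63 and Eno3 correlated with the mean log2 value of the 39 genes at r = 0.37 and 0.34. The other 35 genes that passed the filter correlated with it at r = 0.73 to 0.98. These r values are descriptions, since each gene is part of the mean.

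Fast and slow fiber genes were summed separately. Of the 39 genes, 13 are typical of fast fibers. In HET mice their summed level ranged from 30.2 to 469.3 CPM after anti-CD40 and 57.9 to 229.2 CPM after the combination. In the 7 HET libraries not given anti-CD40 it ranged from 4.65 to 220.7 CPM, or to 32.04 CPM without HET IgG replicate 4. In the 15 WT libraries it ranged from 3.76 to 191.5 CPM, so these sets overlapped. The medians were 133.2 CPM in the 8 treated HET libraries, 8.69 CPM in the 7 untreated ones and 7.87 CPM in WT. A slow fiber list held 10 genes, 9 of them in the table. In HET mice it summed to 8.84 to 16.0 CPM after anti-CD40 and 5.81 to 13.9 CPM after the combination. The slow sum was 6.19 to 14.1 CPM in the 15 WT libraries. In the 6 HET libraries not given anti-CD40 other than HET IgG replicate 4 it was 6.68 to 10.7 CPM. Tnnt1, Ankrd2, Casq2 and Tnni1 of this list had reads in every library, Tnnt1 at 2.1 CPM or more. The slow sum is therefore not a measure of slow fibers alone. HET IgG replicate 4 stood at 29.7 CPM. Myh7, the slow heavy chain, reached 6.22 CPM in that library and at most 0.345 CPM in the other 29, with no read in 19 of them. Tnnt1, Casq2, Myoz2, the slow light chain Myl2 (2.45 CPM) and the slow troponin Tnnc1 (2.75 CPM) also peaked there. Others of the list did not: Ankrd2, a stretch-responsive protein, peaked at 8.02 CPM in HET anti-CD40 replicate 4 against a median of 1.92, and Tnni1 and Myh7b peaked in WT IgG libraries. Mybpc1, the slow myosin binding protein among the 39 genes, was high in the same libraries as the fast genes, with 9.99 CPM in HET IgG replicate 4, 7.77 and 8.94 in HET anti-CD40 replicates 1 and 4, and 9.17 in HET combination replicate 3.

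The mixture of heavy chains differed between high libraries, as the plot of myosin shares shows. In the 15 libraries with at least 100 reads of Myh4, Myh1, Myh2 and Myh7 together, Myh4 took between 16.2% and 81.1% of those reads and Myh1 between 15.2% and 77.8%. The 8 HET libraries given anti-CD40 had Myh4 shares of 33.2% to 81.1%, with a median of 61.7%. The 3 HET libraries not given it that had enough reads were at 16.2% (95% Wilson interval 11.9 to 21.7), 19.1% (15.3 to 23.7) and 31.6% (29.6 to 33.8). Within L7 the 3 anti-CD40 libraries had 54.5%, 69.0% and 72.8%, and the 2 anti-PD1 libraries 16.2% and 19.1%. In L8 the HET IgG library had 31.6%, and the 5 libraries given anti-CD40 ran from 33.2% to 81.1%. In 3 WT libraries Myh1 also led, with 69.2% to 73.5% of the reads, but WT anti-PD1 replicate 1 had 58.7% Myh4. The shares were compared after the values were seen, the intervals cover counting error only, and the difference between sets was not tested. HET IgG replicate 4 was the most mixed, with 31.6% Myh4, 33.5% Myh1, 26.02% Myh2 and 8.83% Myh7. The heavy chain genes are near-identical over long stretches, and how reads shared between them were assigned is not stated, so the split is uncertain.

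**Figure D3:**
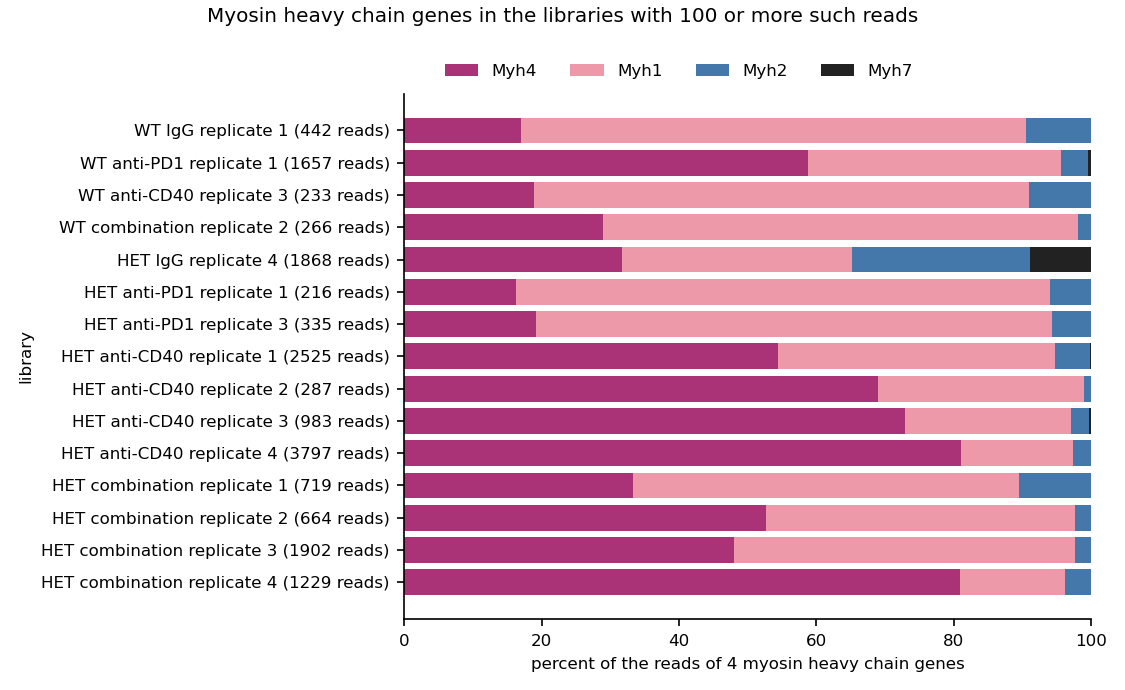
Share of Myh4, Myh1, Myh2 and Myh7 in the reads of these 4 genes, in percent, for the 15 libraries with at least 100 such reads (totals in parentheses). Myh4 has the largest share in 6 of the 8 HET libraries given anti-CD40, and Myh1 in HET combination replicates 1 and 3 and in both HET anti-PD1 libraries.

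Differences were tested with limma on the deposited log2 values of 15002 genes, and a gene was called where its p, adjusted by Benjamini-Hochberg across all of them, was under 0.05. These fits compare log2 CPM with a prior count, which understates differences of genes with few reads. In HET mice, the anti-CD40 and combination groups were set against the IgG and anti-PD1 groups, since the antibodies form a 2 by 2 layout. All 37 genes were higher in the groups given anti-CD40, by a median of 2.28 on the log2 scale, against 49.3% of all genes higher and a median of -0.01. Of the 37, 9 were called, all higher, beside 4.26% of all genes called. The differences that passed were 3.33 ± 0.80 (SE, adjusted p = 0.0270) for Pvalb, 4.01 ± 0.98 (SE, adjusted p = 0.0273) for Mybpc2, 1.89 ± 0.47 (SE, adjusted p = 0.0282) for Tmod4, 2.80 ± 0.72 (SE, adjusted p = 0.0309) for Tcap and 2.75 ± 0.71 (SE, adjusted p = 0.0314) for Ckm. Myh4 followed at 4.89 ± 1.29 (SE, adjusted p = 0.0331), and Pgam2, Tnni2 and Tnnc2 passed with adjusted p of 0.0339, 0.0382 and 0.0438. Of these 9, Pvalb, Tmod4, Tcap and Pgam2 reached the filter level in only 1 or 2 libraries outside the HET groups given anti-CD40, so they entered the test through the groups where they were high. With the filter raised to 10 libraries these 4 were not tested, and 5 of 26 were called (Mybpc2, Ckm, Myh4, Tnni2 and Tnnc2). Of the 37 genes, 27 would have passed the filter without those groups, so counts and medians over the 37 are descriptions. Just outside were Myoz1 (adjusted p = 0.0505) and Atp2a1 (0.0583). Myh1 gave 3.01 ± 1.41 (SE, adjusted p = 0.170), Myh2 2.05 ± 1.11 (SE, adjusted p = 0.232) and Des 1.56 ± 0.61 (SE, adjusted p = 0.113), none of which passed. The 2 genes with the highest mean log2 value gave 0.23 ± 0.12 (SE, adjusted p = 0.209) for Trim63 and 0.15 ± 0.16 (SE, adjusted p = 0.558) for Eno3.

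By role, 2 of 8 thick filament genes, 3 of 7 thin filament genes, 1 of 10 Z-disc and cytoskeletal genes, 1 of 6 calcium handling genes and 2 of 5 energy genes were called higher. Their median log2 differences were 3.07, 3.59, 2.0, 2.08 and 2.15. The 13 fast genes had a median of 3.24 with 5 called, and the 4 slow fiber genes that passed the filter a median of -0.28 with 0 called. Beside these counts, 4.26% of all genes were called. The calls of Tcap (Z-disc), Pvalb (calcium handling), Tmod4 (thin filament) and Pgam2 (energy) are of genes that entered the test through the treated HET groups. Myh7, Myh7b, Myl2, Tnnc1 and Myoz2 of the slow list missed the filter, so the fast and slow medians cannot be compared directly.

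These calls rested on single libraries. Leaving out 1 library at a time, the number of genes of the 37 called was 0 without HET IgG replicate 1, 2 or 3, HET anti-PD1 replicate 2, HET anti-CD40 replicate 3 or 4, or HET combination replicate 3. In these 7 fits at most 1.52% of all genes were called. It was 1 without HET combination replicate 1 (0.973% of all genes), and 3 without HET anti-PD1 replicate 1 or 3 (2.55% and 1.22%). It was 8, 9 and 12 without HET combination replicate 4, HET anti-CD40 replicate 1 and HET combination replicate 2 (4.85%, 6.87% and 6.39%). It was 25 without HET anti-CD40 replicate 2 (12.5%) and 29 without HET IgG replicate 4 (8.69%). The median difference stayed between 1.96 and 2.76 in these fits. With the L number in the fit the median was 0.62, with 0 of the 37 and 0 of all genes called, and Myh4, Ckm and Myh2 were at 2.45, 1.05 and -0.38. The same comparison by overlap gave 0 of 37 genes with every treated HET library above every untreated one, where 1.15% of all genes did so. Without HET IgG replicate 4 it was 9 of 37, beside 2.44% of all genes. Within L7, with 3 anti-CD40 and 5 other libraries, it was also 9 of 37, beside 4.87% of all genes. Both times these were Tmod4, Pvalb, Casq1, Tnnc2, Ckm, Atp2a1, Tnni2, Mybpc2 and Myh4. Of them, Tmod4 and Pvalb passed the filter only through the treated HET groups. HET IgG replicate 4 was left out because its muscle values were seen to be high, so the count without it is a description. Fits limited to some of the L numbers were added after the data were seen. Within L7 the median difference of HET anti-CD40 from HET IgG was 2.82, and without the 6 libraries of L8 it was 2.86, with 0 genes called in either.

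In WT mice the same pooled comparison gave a median of -0.11 over the 37 genes, with 14 higher and 0 called (0% of all genes called). At an unadjusted p under 0.05, 0 of the 37 and 2.53% of all genes passed. The lowest p belonged to Actn2 at -1.20 ± 0.61 (SE, adjusted p = 0.965) and Tcap at -1.23 ± 0.73 (SE, adjusted p = 0.965), followed by Mb at -1.01 ± 0.85 (SE, adjusted p = 0.965), Ldb3 at -0.55 ± 0.62 (SE, adjusted p = 0.965) and Pygm at -0.38 ± 0.45 (SE, adjusted p = 0.965). Myh4, Myh1 and Myh2 gave 0.14 ± 1.30 (SE, adjusted p = 0.996), 0.32 ± 1.43 (SE, adjusted p = 0.990) and -0.11 ± 1.13 (SE, adjusted p = 0.996). Trim63, Eno3 and Des gave 0.05 ± 0.12 (SE, adjusted p = 0.973), 0.06 ± 0.16 (SE, adjusted p = 0.975) and 0.06 ± 0.62 (SE, adjusted p = 0.996). With the L number in the fit, the WT median was 1.39. Only WT anti-PD1 spans L5 and L6, with replicate 4 alone in L6 and the high replicate 1 in L5. This value, and genotype differences that use it, rest on those few libraries. The difference between the genotypes in this response had a median of 2.57, with 37 of 37 genes larger in HET mice, but 0 were called (0% of all genes). The lowest adjusted p was 0.307, for Tcap at 4.03 ± 1.02 (SE), a gene that entered the test through the treated HET groups. At an unadjusted p under 0.05, 21 of the 37 and 7.63% of all genes passed. With the L number in the fit the median genotype difference was -0.72.

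**Figure D4:**
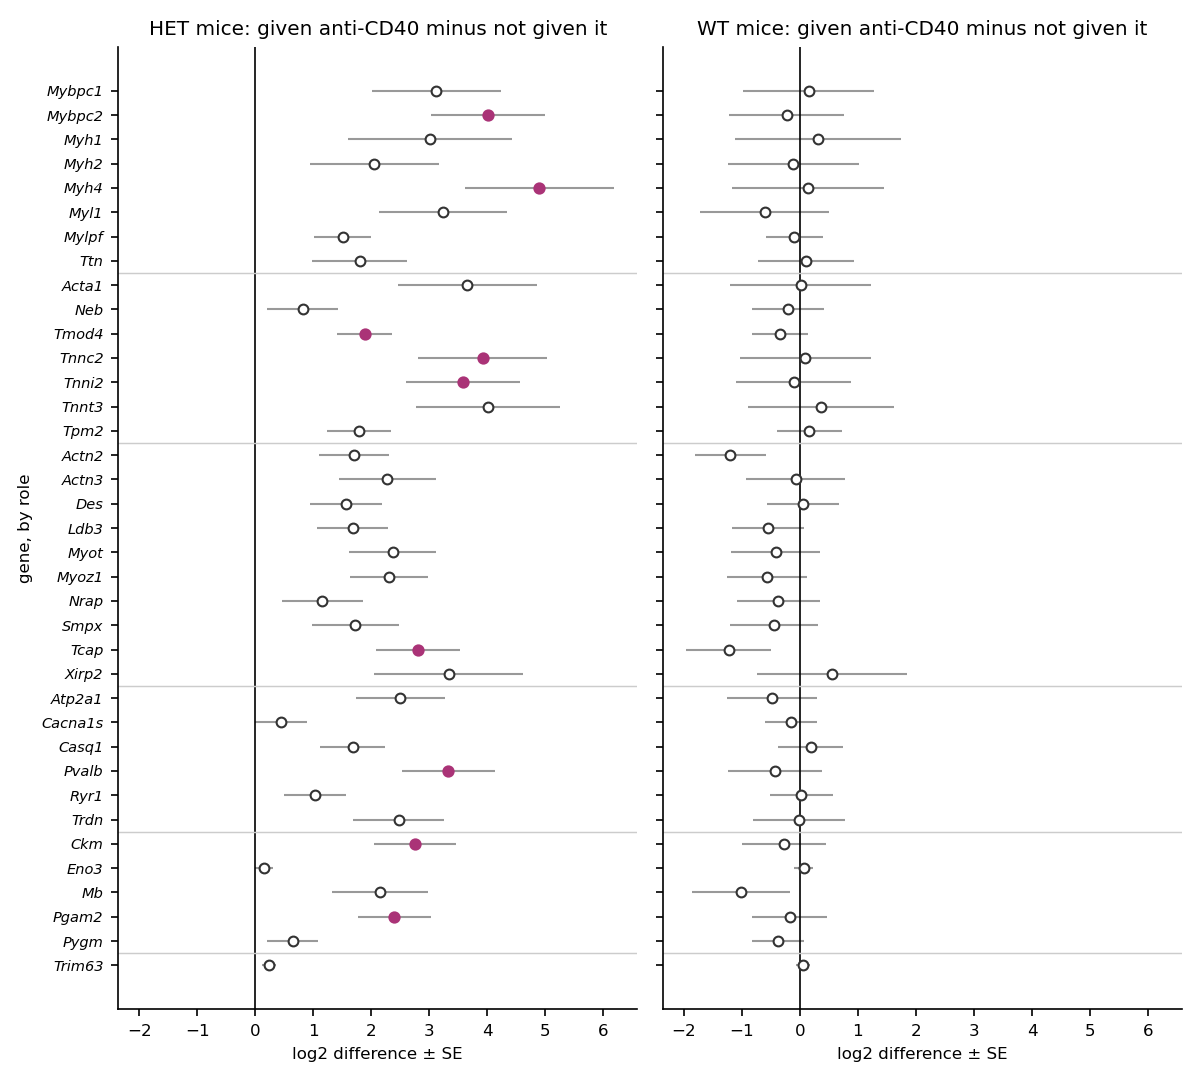
Log2 difference ± SE (limma) of the 37 genes that passed the filter, grouped by role, between libraries given anti-CD40 (with or without anti-PD1) and libraries not given it, in HET mice on the left and WT mice on the right. Filled points are the 9 genes called in HET mice; no gene was called in WT mice, where the median was -0.11.

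The single comparisons called 0 of 37 genes throughout, and 0% of all genes. Between HET anti-CD40 and HET IgG the median difference was 2.20 (37 of 37 higher, lowest adjusted p = 0.184, for Myh4 at 5.90 ± 1.75), where 25 of the 37 and 14.9% of all genes had an unadjusted p under 0.05. For the HET combination the median over HET IgG was 1.82 (37 of 37 higher, lowest adjusted p = 0.335), with 15 of the 37 and 9.81% of all genes under that level. With the L number in the fit the combination's median was -0.28. HET anti-PD1 differed from HET IgG by a median of 0.13, and WT anti-PD1, anti-CD40 and the combination from WT IgG by 0.31, -0.07 and -0.04. In these 4 comparisons 0 of the 37 had an unadjusted p under 0.05, beside 0.960%, 2.75%, 5.18% and 0.413% of all genes. These comparisons share their IgG libraries within a genotype.

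The 5 genes of lowest p in each comparison follow with their log2 difference ± SE. Between HET anti-CD40 and HET IgG, Myh4 (5.90 ± 1.75), Tcap (3.30 ± 0.98), Mybpc2 (4.48 ± 1.33), Pvalb (3.37 ± 1.08) and Tnni2 (3.92 ± 1.33) had the lowest p (adjusted p from 0.184 to 0.237). For the HET combination against HET IgG, Mybpc2 (4.01 ± 1.33), Myh4 (5.00 ± 1.75), Tcap (2.62 ± 0.98), Tnnc2 (3.97 ± 1.51) and Tnni2 (3.43 ± 1.33) had the lowest p (adjusted p from 0.335 to 0.406). Myh4, Mybpc2, Tcap and Tnni2 were among the 5 in both. Tcap and, in the first comparison, Pvalb entered the test through the treated HET groups. For HET anti-PD1 against HET IgG, Pgam2 (-1.36 ± 0.93), Tpm2 (-0.79 ± 0.81), Tmod4 (-0.61 ± 0.69), Eno3 (0.20 ± 0.23) and Casq1 (-0.71 ± 0.82) had the lowest p (adjusted p = 1.00). In WT anti-PD1 against WT IgG, Tcap (1.31 ± 0.93), Actn2 (0.97 ± 0.78), Des (0.75 ± 0.79), Myh1 (-1.69 ± 1.81) and Tpm2 (0.61 ± 0.71) had the lowest p (adjusted p = 1.00). In WT anti-CD40 against WT IgG, Eno3 (0.31 ± 0.22), Tpm2 (1.02 ± 0.78), Actn2 (-1.11 ± 0.85), Smpx (-0.88 ± 1.05) and Tmod4 (-0.49 ± 0.66) had the lowest p (adjusted p from 0.624 to 0.753). In the WT combination, Eno3 (-0.21 ± 0.22), Tcap (-0.92 ± 1.01), Mb (-1.05 ± 1.17), Ttn (0.98 ± 1.15) and Pygm (-0.39 ± 0.62) had the lowest p (adjusted p = 1.00). None of these passed the test.

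HET and WT libraries under the same antibody were compared next. The medians were 0.39 after IgG, 0.38 after anti-PD1, 3.18 after anti-CD40 (36 of 37 higher, lowest adjusted p = 0.452, for Pvalb) and 2.55 after the combination (37 of 37 higher, lowest adjusted p = 0.661). None of the 37 was called in these comparisons (0% of all genes). At an unadjusted p under 0.05 were 0, 0, 30 and 21 of them, beside 2.07%, 2.14%, 3.83% and 5.56% of all genes. With the L number in the fit the last 2 medians were 1.33 and -1.30. Over all 4 treatments the median difference of HET from WT was 1.71, with 37 of 37 genes higher, and 0.38 with the L number in the fit. Genotype and L number are almost fully confounded here and cannot be told apart. Of these 31 had an unadjusted p under 0.05, as had 4.41% of all genes, but 0 of the 37 were called, beside 0.0267% of all genes. Pvalb had the lowest adjusted p, 0.154, at 2.70 ± 0.57, followed by Atp2a1 at 2.38 ± 0.54. The 5 genes of lowest p are again given with log2 difference ± SE. Between genotypes after IgG, Pygm (1.02 ± 0.57), Pgam2 (1.45 ± 0.82), Pvalb (1.66 ± 1.03), Cacna1s (0.92 ± 0.58) and Nrap (1.19 ± 0.91) had the lowest p (adjusted p = 1.00). After anti-PD1, Tmod4 (-1.05 ± 0.69), Myh1 (3.02 ± 2.06), Tpm2 (-1.13 ± 0.81), Cacna1s (0.69 ± 0.66) and Tcap (-1.10 ± 1.05) had the lowest p (adjusted p = 1.00). After anti-CD40, Pvalb (4.98 ± 1.17), Mybpc2 (5.65 ± 1.44), Pgam2 (3.45 ± 0.93), Atp2a1 (4.08 ± 1.12) and Ckm (3.65 ± 1.04) had the lowest p (adjusted p from 0.452 to 0.511). After the combination, Pvalb (4.18 ± 1.17), Atp2a1 (3.67 ± 1.12), Tcap (3.44 ± 1.05), Tnni2 (4.45 ± 1.44) and Ckm (3.17 ± 1.04) had the lowest p (adjusted p = 0.661). Over all treatments, Pvalb (2.70 ± 0.57), Atp2a1 (2.38 ± 0.54), Pgam2 (1.76 ± 0.45), Mybpc2 (2.70 ± 0.70) and Pygm (1.21 ± 0.31) had the lowest p (adjusted p from 0.154 to 0.280). In the genotype difference of the anti-CD40 response, Tcap (4.03 ± 1.02), Actn2 (2.90 ± 0.86), Tmod4 (2.23 ± 0.67), Pvalb (3.76 ± 1.13) and Mybpc2 (4.23 ± 1.40) had the lowest p (adjusted p from 0.307 to 0.327). Pvalb was among the 5 in each of these except HET against WT after anti-PD1. But Pvalb, Tcap, Pgam2 and Tmod4 entered the tests through the HET groups given anti-CD40, so their ranks here are descriptions. Without WT anti-PD1 replicate 1, the high WT library, 6 of the 37 were called for HET against WT over all treatments (0.0667% of all genes, 10 genes), and without HET anti-CD40 replicate 2 it was 1 (0.0267%, 4 genes).

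Other skeletal muscle genes were taken from a separate list. Of 36 further muscle genes, 28 passed the filter, 21 of them were higher in the HET groups given anti-CD40, and 1 was called (Mylk2, a kinase of the fast light chain). Their median difference was 0.68. Among them Tpm1, a tropomyosin, was one of the highest in mean value (0.28 ± 0.13, adjusted p = 0.157). Of all genes, 49.3% were higher and 4.26% were called in this comparison, for these genes and the lists that follow. Of 15 myogenic regulators and developmental genes, 5 were tested and 0 called, led in level by Mef2c (-0.61 ± 0.19, adjusted p = 0.0590) and Ncam1 (-0.56 ± 0.35, adjusted p = 0.287). The denervation list (5 tested, 0 called) was led by Trim63, given above, and Runx1 (0.01 ± 0.16, adjusted p = 0.976), and the cardiac list (3 tested, 0 called) by Nppb (0.80 ± 0.34, adjusted p = 0.141) and Myl4 (0.20 ± 0.40, adjusted p = 0.771). The slow fiber list was led by Tnnt1 (-0.24 ± 0.22, adjusted p = 0.494) and Ankrd2 (0.68 ± 0.38, adjusted p = 0.242), and the satellite cell and nerve list (3 tested, 1 called, Pmp22) included Mbp (-0.65 ± 0.21, adjusted p = 0.0728). The genes of no list whose log2 values followed the mean of the 39 genes most closely over the 30 libraries were Trim54 (r = 0.97), Eef1a2, Mybph, Mypn, Hspb7, Hfe2, Csrp3, Myo18b, Flnc and Smyd1 (r = 0.91).

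Lists for other host tissues were compared in the same way. In the HET groups given anti-CD40, 19 of 19 keratinocyte genes were higher (median 3.36, 1 called), as were 10 of 10 adipocyte genes (2.18, 4 called) and 8 of 8 fibroblast genes (1.70, 3 called), while 0 of 8 red blood cell genes were higher (-1.86, 0 called). Of all genes, 49.3% were higher and 4.26% were called in this comparison. Some keratinocyte genes had no read in many libraries (Flg in 22, Dsg1a in 18 and Krt1 in 16). Such genes could pass the filter through a few high libraries. The genes of highest mean value were Sbsn (0.84 ± 0.45, adjusted p = 0.225) and Dsp (1.54 ± 0.81, adjusted p = 0.219) for keratinocytes and Pnpla2 (0.10 ± 0.15, adjusted p = 0.672) and Fabp4 (1.06 ± 0.29, adjusted p = 0.0396) for adipocytes. Fibroblast genes were led by Sparc (0.27 ± 0.19, adjusted p = 0.350) and Fn1 (0.34 ± 0.35, adjusted p = 0.536), and the red blood cell list included Hbb-bs (-2.11 ± 0.97, adjusted p = 0.164). Melanocyte genes (2 of 8 higher, 0 called) were led by Dct (-0.31 ± 0.13, adjusted p = 0.144) and Gpnmb (-0.30 ± 0.22, adjusted p = 0.374), and smooth muscle genes (2 of 6 higher, 0 called) by Smtn (-0.18 ± 0.11, adjusted p = 0.303) and Acta2 (-0.17 ± 0.48, adjusted p = 0.834). Summed keratinocyte CPM ran from 12.8 to 1445 in the HET libraries given anti-CD40 and from 12.6 to 29.3 in those not given it. The melanocyte genes, which B16F10 cells express, summed to 25055 CPM or more in every library. With the mean keratinocyte level in the fit, the median of the 37 muscle genes was 1.67 and 0 of them were called. In HET IgG replicate 4, HET anti-CD40 replicate 1 and HET combination replicate 4 the muscle sum was 630.4, 616.8 and 268.8 CPM at keratinocyte sums of 18.5, 12.8 and 20.9 CPM, within the range of the low libraries. Other libraries were high in both. HET anti-CD40 replicates 3 and 4 had muscle sums of 275.3 and 929.0 CPM at keratinocyte sums of 864 and 1445 CPM. HET combination replicates 1, 2 and 3 had 218.0, 126.8 and 559.1 CPM at 549, 267 and 140 CPM. WT IgG replicate 1 had 131.3 CPM at 490 CPM. WT anti-CD40 replicate 2 had the highest keratinocyte sum, 3059 CPM, at a muscle sum of 47.2 CPM. The part of skin, fat, connective tissue and blood in the muscle result was not tested.

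**Figure D5:**
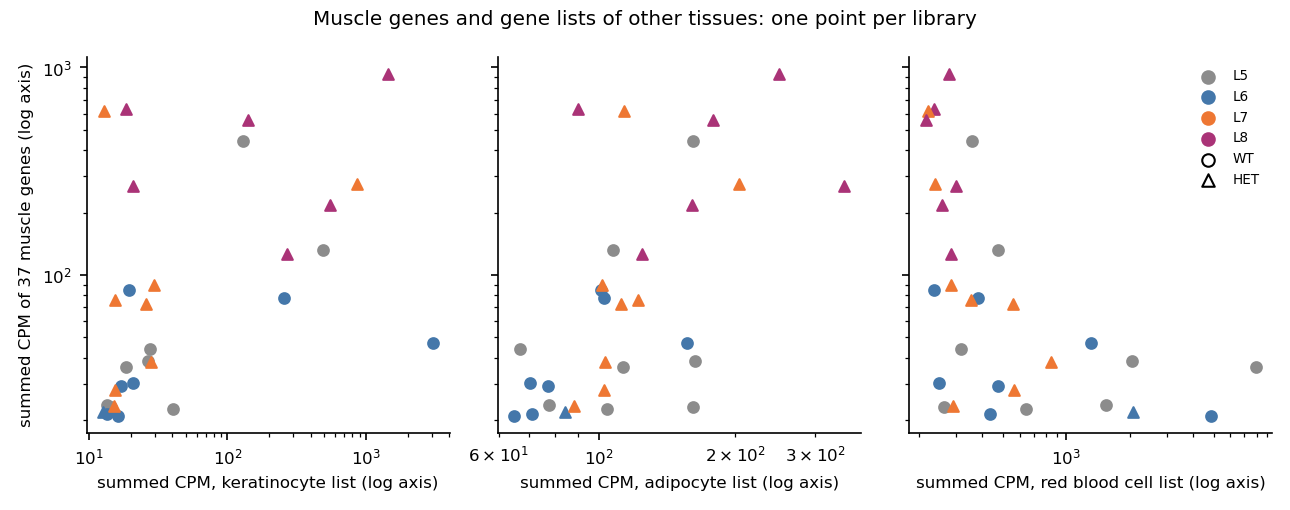
Summed CPM of 37 muscle genes (vertical, log axis) against the summed CPM of the keratinocyte, adipocyte and red blood cell lists (horizontal, log axes), 1 point per library, colored by L number, with circles for WT and triangles for HET. HET IgG replicate 4, HET anti-CD40 replicate 1 and HET combination replicate 4 combine muscle sums of 630.4, 616.8 and 268.8 CPM with keratinocyte sums of 18.5, 12.8 and 20.9 CPM. Other libraries are high in both, such as HET anti-CD40 replicate 3 (275.3 and 864 CPM) and HET combination replicate 1 (218.0 and 549 CPM).

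Ckm was correlated with 1 gene of each other tissue over the 30 libraries (6 relations, two-sided permutation tests with 100000 resamples, Benjamini-Hochberg adjusted). With Krt5, a basal keratin of skin, Pearson's r was 0.54 (p = 0.00227, adjusted p = 0.00454) and Spearman's rho 0.58 (adjusted p = 0.00312). With Adipoq, a fat cell hormone, r was 0.59 (p = 0.00054, adjusted p = 0.00162) and rho 0.51 (adjusted p = 0.0087). With Hbb-bs, an adult beta globin, r was -0.61 (p = 0.00049, adjusted p = 0.00162) and rho -0.69 (adjusted p = 0.0003). Without the 2 libraries farthest from the median of Ckm these r were 0.42, 0.49 and -0.59. They did not hold in every L number: in L5, L6, L7 and L8, r was 0.76, 0.49, 0.55 and 0.05 for Krt5, 0.33, 0.29, 0.75 and 0.42 for Adipoq, and -0.39, -0.68, -0.74 and 0.02 for Hbb-bs. Acta2, the smooth muscle actin (r = 0.10, rho = -0.0011, adjusted p = 0.605 and 0.996), and Pmel, a melanocyte gene (r = -0.17, rho = -0.15, adjusted p = 0.469 and 0.502), gave no relation that passed, and r without the same 2 libraries was 0.12 and -0.05. With Myh7, r was 0.39 (p = 0.0259, adjusted p = 0.0389), or 0.48 without the 2 libraries, but rho 0.26 (adjusted p = 0.247), and within L5 to L8 r was 0.58, -0.14, 0.94 and 0.19. Of 194 Myh7 reads, 165 were in HET IgG replicate 4, which was not 1 of the 2 libraries left out. In L7, HET anti-CD40 replicates 1 and 3 had 5 and 3 Myh7 reads.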

How the data were processed

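RNA of 30 whole tumors was sequenced. STAR, edgeR and mm10 are named per the submitters' processing notes, and versions, read assignment and strand are not given in the sources used here. The authors deposited 1 table of log2 CPM values with a prior count, in which a gene without a read stands at -3.64. From its steps whole reads were recovered (100% of values within 0.01 of a whole number in every library), giving 17.6 M to 36.0 M reads per library and the CPM printed here. Tests used limma 3.58.1 in R 4.3.3 on the deposited log2 values of genes above 0 in at least 3 libraries (15002 genes), with all 8 groups in 1 fit, an intensity trend, 22 residual degrees of freedom and a call at an adjusted p under 0.05. Python 3.11.15, numpy 2.4.6 and pandas 2.3.3 made the descriptions. The fitting code was tested on simulated data.

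The members and lists were chosen with earlier results of these data known. Genes were named by a rule: the top 2 by mean log2 value in each role, the fast myosins and Myh7 with their values; the 3 members of highest mean value, the fast myosins and the 5 members of lowest p in each comparison with their differences; the 10 genes of no list closest to the member mean; and the top 2 of each other list. Some genes that this rule names are not reported here. Gene positions are those of GENCODE for mm10. Alternatives were no filter, a stricter filter, another prior count, voom, library weights, no trend, a replicate block, the L number or the keratinocyte mean as a covariate, the compared groups alone, and each library left out. Fits without L8 and within L7 were chosen after seeing the data, as was the overlap count without HET IgG replicate 4.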

Additional observations from a re-analysis of the deposited data

Results flagged for a closer look

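In groups of 4 or 5 libraries, 18 values stood apart from the rest of their group, all of them high, out of 80 gene and group pairs tested with Dixon's criterion. Chance flags about 1 in 20 groups, and the values of 1 library are not independent of each other. WT anti-PD1 replicate 1 stood apart for Mylpf (log2 value 3.89), Actn3 (3.05), Atp2a1 (5.02), Ryr1 (3.02), Myh1 (4.73), Myh2 (1.505), Myh4 (5.39) and the mean of the 39 genes (2.78). HET IgG replicate 4 stood apart for Mylpf (4.65), Ttn (5.08), Acta1 (6.94), Ryr1 (3.57), Myh2 (4.20) and the mean of the 39 genes (3.21). WT IgG replicate 1 stood apart for Ckm (2.52) and Myh2 (1.01). Myh7 stood apart at low levels in WT IgG replicate 4 (-2.47) and HET combination replicate 3 (-3.12). Both are close to the -3.64 of a gene without a read, and the value of HET combination replicate 3 is 1 read.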

How the results depend on the processing

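For anti-CD40 in HET mice, 9 members and 639 genes were called. Members called were 5 with the filter raised to 10 libraries, 5 with a prior count of 0.5 reads, 25 with library weights (5359 genes), and 0 with either the L number or the keratinocyte mean in the fit (0 genes each). Leaving out each library gave 0 to 29 members and 0 to 1876 genes. With the replicate number as a block it was 3 members and 224 genes; same-numbered libraries did not deviate together (median r -0.02 over 94 pairs, 0.01 over 298 others), so numbers do not pair the samples. HET against WT called 4 genes, and 2 with the prior count of 0.5, 0 with voom, 8 (1 member) with weights, 1 without the trend, 0 with the L number, and 0 to 10 genes and 0 to 6 members without each library. Weights also called 50 genes for HET anti-PD1, 60 for HET anti-CD40 and 407 (4 members) for the HET combination against IgG, and 23 (1 member) for HET against WT after the combination; leaving out each library gave 0 to 1, 0 to 1 and 0 to 6 genes for the first 3. The keratinocyte mean called 1 gene for HET against WT after anti-CD40.

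With the L number in the fit the member median was 1.57 (WT anti-CD40) and 1.66 (WT combination) against IgG, -0.28 (HET combination against IgG), 1.33 and -1.30 (HET against WT after anti-CD40 and the combination), 0.62 and 1.39 (pooled anti-CD40 in HET and WT) and -0.72 (genotype difference). The medians within WT rest on WT anti-PD1, the only group in both L5 and L6, with replicate 4 alone in L6. The genotype difference rests on that group and on HET IgG and HET anti-CD40, the HET groups in more than 1 L number. Signs turned in pooled WT for Myh2 (0.22 with the prior count, 0.093 voom, 0.043 weights, 0.10 block, 1.39 L number), Trim63 (-0.10 weights, -0.12 L number), Tcap, Mb, Ldb3 and Pygm (0.069, 1.01, 0.59 and 1.39, L number) and, under the keratinocyte mean, Eno3 (-0.0057), Des (-0.21), Myh1 (-0.016) and Myh4 (-0.27). In pooled HET they turned for Myh2 (-0.38, L number) and Eno3 (-0.048, keratinocyte mean). Without each library in turn, pooled WT ranged from -0.70 to 0.53 for Myh2, -0.52 to 1.36 for Myh1, -0.54 to 1.24 for Myh4, -0.010 to 0.15 for Eno3, -0.26 to 0.39 for Des and -0.010 to 0.11 for Trim63. Within L5 to L8, correlations with Ckm missed the threshold or turned for Krt5 (L6 0.49, L7 0.55, L8 0.048), Adipoq (L5 0.33, L6 0.29, L8 0.42), Hbb-bs (L5 -0.39, L6 -0.68, L8 0.017), Acta2 (L6 -0.18), Pmel (L6 0.29) and Myh7 (L5 0.58, L6 -0.14, L8 0.19). The cause of these changes was not tested.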
